A study of Homo sapiens with 9 samples.

Results

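The RNA shared by 2 BJAB lines that carry TACI was compared with that of parental BJAB. The 6 libraries of TACI-bearing cells formed one side and the 3 libraries of parental cells the other. A gene was taken as shared when all 6 TACI libraries lay above all 3 parental libraries, or all 6 below all 3. Of 57500 genes in the files, 16672 had enough counts to be tested, and 4060 of these (24.4%) were shared: 1856 were higher and 2204 lower in TACI-bearing cells. The rule uses the measured levels, so the direction of a shared gene is fixed by its choice, and the values below describe how far and how evenly these genes moved.

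TACI, encoded by TNFRSF13B, belongs to the TNF receptor family and sits on B cells. It binds the cytokines BAFF and APRIL, recruits TRAF adaptor proteins and is known for its part in NF-kB activation, antibody class switching and plasma cell formation. Splicing gives a long form and a short form that differ in the extracellular part. The established human line BJAB is of B-cell origin, and the labels assign it to Burkitt lymphoma.

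The control group was 3 libraries of parental BJAB, TACI long was 3 libraries of BJAB given the long form, and TACI short was 3 libraries of BJAB given the short form. All were untreated. Titles of the samples call the TACI cells stably transfected, whereas the series text speaks of transduction. Neither names the promoter of the transgene, and no line with an empty vector was analysed here. Each TACI group is a single line as labelled, and whether it is a clone is not stated, so the introduced gene and any other property of the line cannot be told apart. The labels do not say that replicates were separate cultures. The p-values therefore reflect library-to-library spread alone, which could be technical in part or whole.

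Total counts ran from 40322136 to 50079203 per library. Between 24307 and 25938 genes had a count in 7 libraries, and TACI short replicates 2 and 3 had 32882 and 32209. These 2 libraries stand apart from TACI short replicate 1, and the counts given next were therefore repeated without them. B-cell markers were present in each library: the summed level of MS4A1, CD79A, CD79B and PAX5 was 2760 to 2910 CPM in controls, 2890 to 2980 in TACI long and 2050 to 2300 in TACI short. CPM are counts per 1000000 of the library total, scaled by trimmed mean of M values (TMM) factors.

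All tested genes were compared with control by the contrast that averages the log2 fold changes of both lines, so that a difference between the lines does not count as replicate error. At an adjusted p under 0.05 (edgeR quasi-likelihood test, Benjamini-Hochberg adjusted), 3983 of the 16672 genes (23.9%) were higher in TACI-bearing cells and 4606 (27.6%) were lower. Only 46.3% of these 8589 called genes were shared. The average can pass the test when one line carries it, and a gene also fails the rule when a single library overlaps the other side. How many called genes missed the rule in each way was not tested. The shared genes made up 11.1% of tested genes in the higher direction and 13.2% in the lower direction. Of the shared genes, 1816 higher and 2157 lower ones were called, a count that the rule favours because it used the same libraries, and nothing is read from it. Both lines were set against the same 3 controls, so their fold changes are not independent of each other.

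The shared changes were mostly small. The smaller of the 2 fold changes had a median of 1.28-fold among shared higher genes and 1.19-fold among shared lower genes. It reached 2-fold in 247 higher genes (13.3%) and in 108 lower genes (4.9%). At the edge of the rule, FBXL16 was just inside (highest control 12.1851 CPM, lowest TACI library 12.1852 CPM) and MAD2L1 was just outside (144.684 and 144.649 CPM). Without TACI short replicates 2 and 3, 2525 genes were shared higher and 2501 lower, more than with all libraries. Fewer libraries must then lie on one side, and more genes, 17628, passed the count filter.

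With the TACI libraries fitted as a single group, which counts the distance between the lines as error, 958 genes were called higher and 958 lower, and 36 of 95 genes followed by name lost their call. When libraries were scaled by their totals alone, 57.8% of called genes were higher, against 46.4% with TMM factors. Shared genes then numbered 2475 higher and 1768 lower, against 1856 and 2204 with TMM factors. Upper-quartile factors gave 2223 shared higher and 1974 shared lower, so which direction held more genes depended on the scaling.

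**Figure D1:**
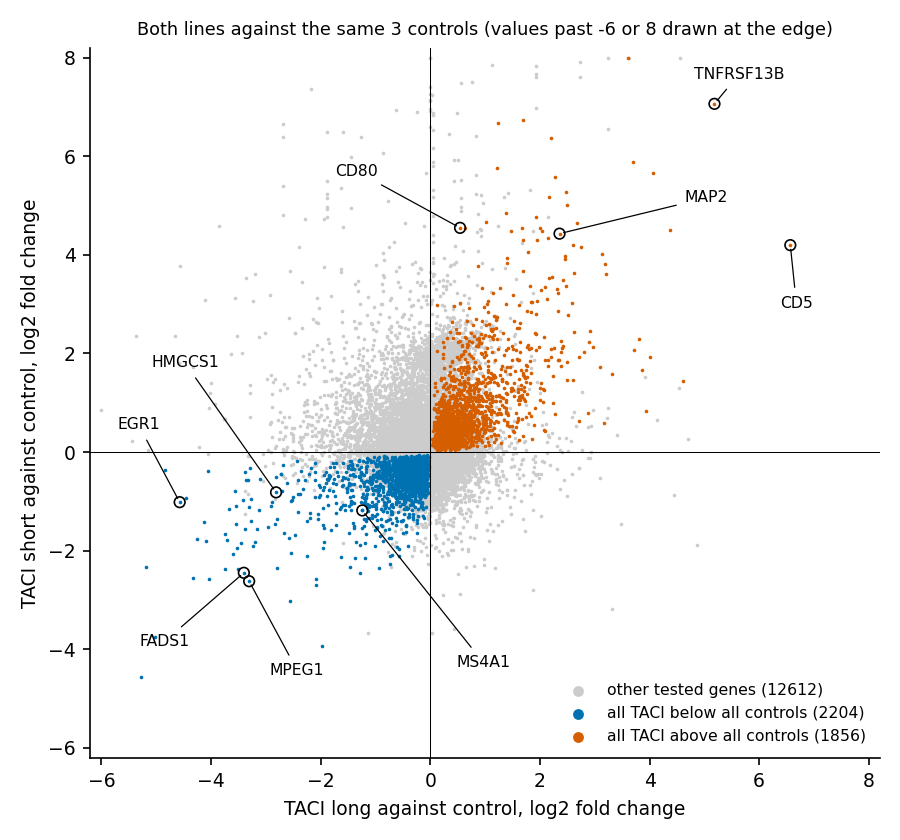
Each point is 1 of the tested genes, with the log2 fold change of TACI long against control on the x axis and that of TACI short against the same controls on the y axis. The 1856 genes with all TACI libraries above all controls are orange, the 2204 with all below are blue, and the other 12612 genes are grey, with named examples ringed; many of the grey genes lie in the quadrants where the lines moved in opposite directions.

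The gene brought into the cells, TNFRSF13B, was on the higher side by a wide gap (ENSG00000240505; hg38 chromosome 17, 16929816 to 16972118). Its highest control, replicate 1, stood at 30 CPM and its lowest TACI library at 717 CPM. The averaged log2 fold change was 6.12 ± 0.28 (SE, adjusted p = 2.75e-06), with the TACI short libraries 3.68-fold above the TACI long ones. Gene counts do not separate the isoforms, so isoform and amount of receptor RNA differ together between the lines. Among 12 other tested ligands, receptors and adaptors of the TACI list, 1 was shared, where 24.4% of all genes tested were shared. That gene was TRAF5, an adaptor of TNF receptors, at 27.6 to 29.3 CPM in controls, 17 to 17.9 in TACI long and 18.6 to 21.2 in TACI short (averaged log2 fold change -0.63 ± 0.05).

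CD5, a surface glycoprotein of T cells and of a subset of B cells that dampens antigen receptor signalling, came next to TNFRSF13B by the smaller fold change of the 2 lines, among protein-coding genes with a mean of at least 1 CPM. It lies on hg38 chromosome 11 from 61102395 to 61127852 (ENSG00000110448). Its level was 0.475, 0.446 and 0.397 CPM in the controls, 39.8, 43.5 and 42.4 CPM in TACI long and 8.81, 8.02 and 7.5 CPM in TACI short. The groups are far apart from each other, with TACI long highest. The averaged log2 fold change was 5.38 ± 0.10 (adjusted p = 1.04e-21), and TACI short was below TACI long by 5.17-fold.

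MAP2 encodes a microtubule-associated protein best known from neurons (ENSG00000078018, hg38 chromosome 2, 209424058 to 209734118). It was barely present in controls, at 0.181, 0.188 and 0.287 CPM, and stood at 1.32, 1.08 and 1.01 CPM in TACI long and 5, 4.55 and 4.79 CPM in TACI short. These levels rest on 29 counts over the controls, 144 over TACI long and 684 over TACI short. The count ratio to control was 5.16 in TACI long (exact 95% interval 3.44 to 7.98) and 23.8 in TACI short (16.4 to 35.9), intervals that cover counting error only. Among the other neuronal genes of the marker list, 6 had no count in any control, and the list's summed level without MAP2, mostly TUBB3, was 42.4 to 45.5 CPM in controls, 100 to 106 in TACI long and 26.2 to 30.1 in TACI short.

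Several further genes of low control level rose in both lines. SLC28A3, a sodium-coupled nucleoside transporter, went from at most 0.328 CPM to 1.52 to 2.09 CPM in TACI long and 3.17 to 3.74 CPM in TACI short. The zinc finger gene ZDBF2 went from 0.939 to 1.36 CPM in controls to 4.92 to 6.14 CPM and 9.78 to 11.1 CPM. In both genes the TACI short libraries lay above the TACI long libraries. LIMCH1, an actomyosin regulator, reached 0.806 to 0.882 CPM in TACI long and 7.87 to 9.04 CPM in TACI short from at most 0.188 CPM in controls. PECR, a peroxisomal enoyl-CoA reductase, had 19 counts over the controls, 102 over TACI long and 330 over TACI short.

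HSPG2, which encodes the basement membrane proteoglycan perlecan, had the opposite order of lines. It stood at 0.136 to 0.243 CPM in controls, 2.74 to 2.93 CPM in TACI long, and 0.437, 1.34 and 1.13 CPM in TACI short, where replicate 1 was lowest. UNC13C, a vesicle priming factor, had 0 counts in all 3 controls and was the only shared gene of which this is true. It had 590 counts over TACI short, 199-fold above a control floor of 3 counts over the group. TACI long had 4 counts in all, so in that line its rise rests on very few reads. The exact 95% lower bound of its count ratio to control was 161 in TACI short. In TACI long that bound was 0.686, so the interval there includes no change. Averaged log2 fold changes of the genes in these 2 paragraphs, UNC13C aside, ran from 2.77 ± 0.12 (ZDBF2) to 3.92 ± 0.17 (LIMCH1).

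**Figure D2:**
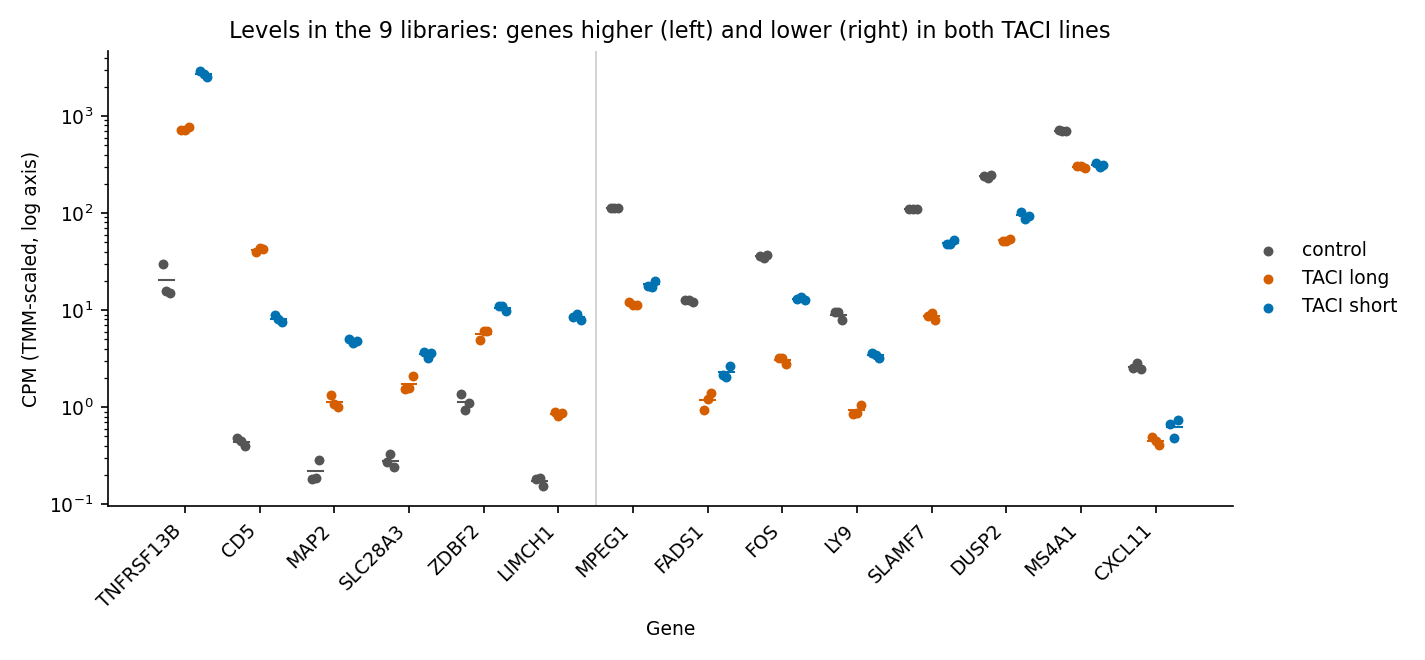
Dots are the 9 libraries and short lines the group means of 14 genes, in CPM on a log axis, with genes higher in both TACI lines on the left and genes lower on the right. In every gene shown the 6 TACI libraries lie on one side of the 3 controls, and the order of the lines differs from gene to gene: TACI long is above TACI short in CD5 and below it in MAP2.

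MPEG1 had the largest smaller fold change among falls under the same limits. It encodes perforin-2, a pore-forming protein of phagocytes and some B cells that acts on engulfed bacteria (ENSG00000197629, hg38 chromosome 11, 59208510 to 59212951). The controls stood at 114, 114 and 113 CPM, TACI long at 12.1, 11.2 and 11.2 CPM, and TACI short at 17.8, 17.5 and 20 CPM. TACI long held 9.88-fold less and TACI short 6.14-fold less than the controls (averaged log2 fold change -2.96 ± 0.04, adjusted p = 1.95e-23).

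Other immune genes fell with it. LY9 and SLAMF7, which encode receptors of the SLAM family, fell by 2.33 and 2.41 on the averaged log2 scale. LY9 stood at 7.84 to 9.63 CPM in controls, 0.858 to 1.06 in TACI long and 3.18 to 3.61 in TACI short. SLAMF7 stood at 109 to 111 CPM in controls, 7.93 to 9.39 in TACI long and 47.5 to 53.1 in TACI short. Both were lowest in TACI long, with TACI short between that line and the controls. CXCL11, a chemokine ligand of CXCR3, went from 2.47 to 2.86 CPM in controls to 0.409 to 0.49 in TACI long and 0.476 to 0.735 in TACI short, and its TACI lines overlapped.

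Of the remaining falls, 3 had uneven TACI short replicates. AGGF1, an angiogenic factor, had 7.66 to 8.96 CPM in controls and 1.56 to 2.31 in TACI long, but 0.372, 1.61 and 1.83 CPM in TACI short. ACOT2, a mitochondrial acyl-CoA thioesterase with a near-identical neighbour, ACOT1, that could share its reads, had 3.26 to 3.43 CPM in controls, 0.12 to 0.392 in TACI long and 0.197, 1.52 and 1.17 in TACI short. TUBB4A, a beta-tubulin, had 2.25 to 2.74 CPM in controls, 0.192 to 0.368 in TACI long and 0.372, 0.77 and 0.885 in TACI short. In all 3 genes TACI short replicate 1 was the lowest of its group. TMEM108, a transmembrane protein gene, was more even, at 2.24 to 2.47 CPM in controls and 0.553 to 0.929 CPM over the 6 TACI libraries.

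Outside protein-coding genes, LINC01987 rose in both lines, with TACI short above TACI long by 0.40 ± 0.10 on the log2 scale. It had 0.798 to 1.06 CPM in controls, 8.22 to 10 in TACI long and 10.8 to 13.5 in TACI short (averaged log2 fold change 3.41 ± 0.12). LINC02889 rose by 2.60 ± 0.24 on the same scale. SCIRT, annotated as antisense, fell from 27.4 to 28 CPM in controls to 0.717 to 0.809 in TACI long and 4.6 to 6.18 in TACI short, but the library kit does not keep the strand, so reads of overlapping genes cannot be told apart. The lincRNA ENSG00000257826 fell with a short against long difference of 0.01 ± 0.14, to 1.77 to 2.39 CPM over all 6 TACI libraries from 7.13 to 8.39 CPM in controls.

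Cholesterol synthesis had the highest share of shared genes among the lists with at least 10 tested members. Of 20 tested enzymes 18 were shared lower (90%, against 13.2% of all genes tested), 0 were shared higher, and the same 18 were called lower (18 of 20, against 27.6% of all genes). The list's median log2 fold change was -1.28 in TACI long and -0.57 in TACI short, against medians of 0.00 and 0.03 over all genes. Cells make cholesterol from acetyl-CoA through mevalonate, squalene and lanosterol, and the transcription factor SREBP-2 drives the genes of this path when membrane sterol is low.

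HMGCS1, which makes HMG-CoA at the entry of the path, stood at 893, 925 and 920 CPM in controls, 130, 129 and 131 CPM in TACI long and 540, 495 and 520 CPM in TACI short. FDFT1, squalene synthase, went from 640 to 692 CPM to 194 to 198 CPM and 425 to 471 CPM. The 3 groups were separate in both genes, with TACI short in the middle.

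DHCR7, which acts at the end of the path, fell as well, from 230 to 240 CPM in controls to 70.1 to 72.1 in TACI long and 126 to 132 in TACI short (averaged log2 fold change -1.31 ± 0.03). NSDHL, a sterol dehydrogenase, was the only one of the 18 in which the lines were not called different, at 49.1 to 52.8 CPM in controls, 29.1 to 30.3 in TACI long and 27.6 to 29 in TACI short (short against long, log2 -0.06 ± 0.05). In the other 17, TACI short was above TACI long, where 35.2% of all genes were called higher in TACI short and 33.6% lower. MSMO1, a sterol methyl oxidase, had the narrowest gap, at 84.9 to 92.1 CPM in controls, 29.2 to 29.9 in TACI long and 71.3 to 80.2 in TACI short, and left the shared side with upper-quartile factors or library totals alone.

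The 2 enzymes that were not shared are PMVK and TM7SF2. PMVK had 31.5 to 34.3 CPM in controls, 37.9 to 41.3 in TACI long and 32.8 to 37.5 in TACI short. TM7SF2 had log2 fold changes of -0.28 in TACI long and 0.37 in TACI short.

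Genes that sense and move sterol were mixed. Of 15 tested, 5 were shared lower (33.3%, against 13.2% of all genes) and 2 shared higher (13.3%, against 11.1%). INSIG1, which retains the SREBP complex in the endoplasmic reticulum and is itself an SREBP target, fell from 248 to 254 CPM to 39.2 to 43.3 and 156 to 166 CPM. SREBF1, the gene of SREBP-1, also fell (182, 177 and 180 CPM in controls, 68.3 to 70.3 in TACI long, 120 to 137 in TACI short). SREBF2, the gene of SREBP-2, was not shared: it had 476 to 485 CPM in controls, 264 to 274 in TACI long and 439 to 494 in TACI short, which overlaps the controls. On the higher side were ABCG1, an exporter of sterol (0.574 to 0.915 CPM in controls, 1.14 to 1.51 and 1.97 to 2.09 CPM in the TACI lines), and NR1H3, the gene of the oxysterol receptor LXR alpha (averaged log2 fold change 0.34).

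Of 17 tested fatty acid genes, 10 were shared lower (58.8%, against 13.2% of all genes) and 0 shared higher. FADS1, the delta-5 desaturase that makes arachidonic acid, was the deepest (ENSG00000149485, hg38 chromosome 11, 61799625 to 61829318). It stood at 12.6, 12.8 and 12.1 CPM in controls, 0.931, 1.21 and 1.39 CPM in TACI long and 2.16, 2.04 and 2.64 CPM in TACI short (averaged log2 fold change -2.92 ± 0.10, adjusted p = 1.06e-16). Its neighbour FADS2, the delta-6 desaturase, had 2.67 to 2.96 CPM in controls and 2.4 to 3.38 CPM over the TACI libraries, and did not pass the test (-0.05 ± 0.13, adjusted p = 0.764). The annotated spans of these 2 genes overlap, and without strand their reads over the common part cannot be told apart.

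FASN, fatty acid synthase, went from 1620 to 1700 CPM in controls to 569 to 632 in TACI long and 760 to 842 in TACI short. SCD, the delta-9 desaturase, went from 1090 to 1130 CPM to 223 to 225 and 645 to 689 CPM. The elongase ELOVL6 fell from 68 to 69.4 CPM to 36.6 to 37.6 CPM in TACI long and 40.9 to 43.9 CPM in TACI short. ACSL1, an acyl-CoA synthetase, had the opposite order of lines from SCD, at 104 to 105 CPM in controls, 92.7 to 98.3 in TACI long and 59.8 to 65.5 in TACI short.

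**Figure D3:**
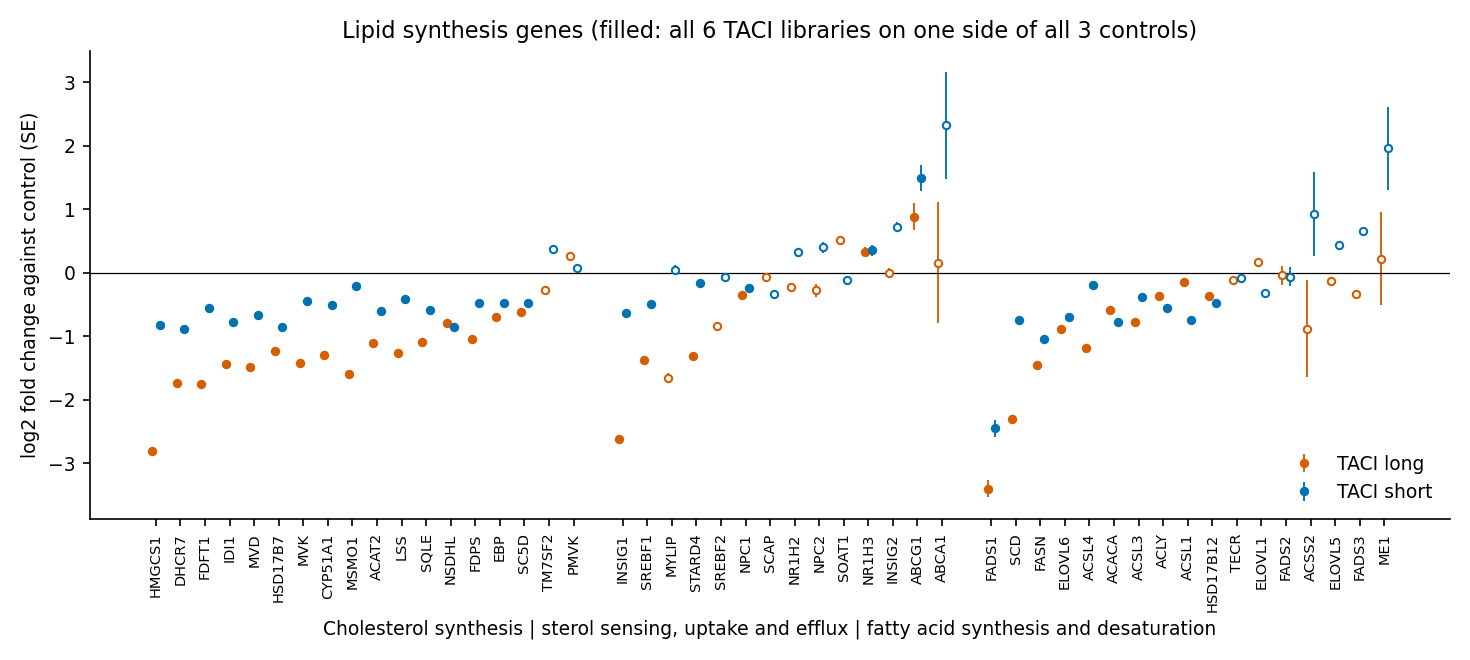
Points are log2 fold changes against control (y axis, bars are SE) of TACI long (orange) and TACI short (blue) for tested genes of the 3 lipid lists on the x axis, filled where all TACI libraries are on one side of all controls. In the cholesterol list 16 of the 18 genes drawn are filled and below 0, with TACI short nearer to 0 than TACI long in all of them but NSDHL.

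Promoter sequence was examined for these lower lipid genes because they moved together. Of 33 shared lower genes in the 3 lists, 25 matched a RefSeq promoter window (GRCh38.p14, 250 bases before to 50 after the gene start). A form of the sterol element, TCACNCCAC, was searched on both strands and matched 0 of the 25 windows, against 1.14% of the windows of all genes tested. CCAAT, the motif of the factor NF-Y, was searched likewise and matched 16 of the 25 windows (64%). It matched 55.6% of 18 windows of the tested lipid genes that were not shared lower, 36.8% of those of all genes tested and 36.6% of those of all shared lower genes. A match is a string of letters and not a site. The stretches that hold the matches of 4 of these genes are shown 5′ to 3′ along the gene, with CCAAT, or ATTGG where it lies on the other strand, in capitals. They were picked to show the entry enzyme, a late enzyme and 2 windows with the most matches, and in NSDHL a pair of matches overlaps.
HMGCS1 (chr5:43313493-43313582, minus strand): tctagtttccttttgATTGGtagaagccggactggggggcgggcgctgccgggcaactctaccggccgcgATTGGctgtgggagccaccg
DHCR7 (chr11:71448422-71448502, minus strand): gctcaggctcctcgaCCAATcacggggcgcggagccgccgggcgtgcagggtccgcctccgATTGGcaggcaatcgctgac
NSDHL (chrX:152830820-152830998, plus strand): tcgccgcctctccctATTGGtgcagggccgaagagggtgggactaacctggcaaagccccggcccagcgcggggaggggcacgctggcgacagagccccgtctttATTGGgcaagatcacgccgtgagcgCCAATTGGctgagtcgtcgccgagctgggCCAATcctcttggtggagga
MVK (chr12:109573569-109573767, plus strand): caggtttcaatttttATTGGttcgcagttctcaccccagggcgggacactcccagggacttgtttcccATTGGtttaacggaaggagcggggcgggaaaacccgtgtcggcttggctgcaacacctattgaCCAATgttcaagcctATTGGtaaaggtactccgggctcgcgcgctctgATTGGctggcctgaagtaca

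Immediate early genes are those that cells switch on within minutes of receptor signalling. Of 30 tested members 8 were shared lower (26.7%, against 13.2% of all genes) and 1 shared higher, while the list's median was -0.53 in TACI long and 0.29 in TACI short. FOS, a subunit of AP-1, fell from 36, 34.4 and 37.2 CPM in controls to 3.19, 3.23 and 2.76 CPM in TACI long and 12.9, 13.6 and 12.7 CPM in TACI short. EGR1 fell from 843 to 890 CPM to 33.8 to 39.7 in TACI long and 406 to 450 in TACI short. DUSP2, a phosphatase that acts on MAP kinases, fell from 230 to 244 CPM to 51 to 53.8 and 86.1 to 103 CPM.

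EGR3 fell by 1.82 ± 0.15 on the averaged log2 scale, from -2.25 in TACI long and -1.39 in TACI short. IER2 fell by 1.07 ± 0.04, from -1.84 in TACI long and only -0.30 in TACI short. CD69, an early activation antigen, showed how unevenly a shared gene can move: it had 39.2 to 39.8 CPM in controls, 1.16 to 1.74 in TACI long and 29.4 to 32.7 in TACI short. In 7 of the 8 shared lower genes TACI short was called above TACI long, and MYC was the exception (short against long 0.10 ± 0.04, adjusted p = 0.0547). MYC stood at 243 to 260 CPM in controls, 185 to 201 in TACI long and 199 to 216 in TACI short. BTG2, an antiproliferative gene, rose from 81.5 to 84.2 CPM to 121 to 123 in TACI long and 118 in each TACI short library (short against long -0.05 ± 0.04).

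B-cell identity genes went both ways, with 4 shared higher (16.7%, against 11.1% of all genes) and 5 shared lower (20.8%, against 13.2%) of 24 tested. MS4A1, which encodes CD20, fell to overlapping levels in the lines: 723, 709 and 693 CPM in controls, 304, 302 and 293 CPM in TACI long and 325, 295 and 316 CPM in TACI short. Every TACI library stayed far below the controls (averaged log2 fold change -1.21 ± 0.04, adjusted p = 4.36e-18, short against long 0.06 ± 0.04). CD22, an inhibitory coreceptor, fell from 819 to 859 CPM to 335 to 344 and 579 to 625 CPM. CD24 was also lower but rests on 40 counts over the controls, 3 over TACI long and 11 over TACI short.

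Among the shared higher identity genes were EBF1, a master transcription factor of the B lineage (59.3 to 60.4 CPM in controls, 100 to 103 in TACI long, 67.4 to 70 in TACI short), and VPREB3 (66 to 69.8, 85.8 to 94.5 and 123 to 134 CPM).

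Genes of germinal centre B cells had 6 of 14 tested members shared higher (42.9%, against 11.1% of all genes) and 1 shared lower. A4GALT, the enzyme that makes the CD77 antigen, rose from 9.74 to 10.6 CPM in controls to 31.3 to 32.5 in TACI long and 46.9 to 51.6 in TACI short (averaged log2 fold change 1.94 ± 0.05). MYBL1 rose from 56.1 to 62 CPM to 90.4 to 98.2 and 89.6 to 99.9 CPM (short against long -0.02 ± 0.05). SERPINA9 stood at 129 to 138 CPM in controls, 425 to 436 in TACI long and 161 to 179 in TACI short.

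Of 12 tested plasma cell genes, 2 were shared in each direction (16.7% each, against 11.1% of all genes higher and 13.2% lower). In the averaged contrast 4 were called higher (against 23.9% of all genes) and 6 lower (against 27.6%). The list's median was 0.15 in TACI long and -0.35 in TACI short. PRDM1, which encodes the plasma cell regulator BLIMP-1, rose from 4.95, 5.02 and 4.26 CPM in controls to 11.7, 11.6 and 11.4 CPM in TACI long and 10.4, 10.3 and 10.3 CPM in TACI short. The short against long difference was -0.16 ± 0.08 (adjusted p = 0.0771). The other shared higher gene was ITGB7 (averaged log2 fold change 0.42 ± 0.12). SLAMF7, listed here as well, fell as given above. JCHAIN, the other shared lower gene, had 481 to 527 CPM in controls, 404 to 437 in TACI long and 253 to 307 in TACI short.

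Of 22 tested B-cell receptor signalling genes, 5 were shared higher (22.7%, against 11.1% of all genes) and 7 shared lower (31.8%, against 13.2%). RASGRP3, an activator of RAS, rose from 166 to 181 CPM to 275 to 281 in TACI long and 267 to 283 in TACI short. LYN, a kinase that starts and restrains receptor signalling, fell from 148 to 149 CPM to 98 to 102 and 91.1 to 96.4 CPM. BLNK, the adaptor downstream of SYK, fell by 0.47 ± 0.05 with a short against long difference of -0.01 ± 0.05. For RASGRP3 that difference was -0.03 ± 0.04 and for LYN -0.09 ± 0.04, and none of the 3 was called. PTPN6, the phosphatase SHP-1, differed more between the lines, with 548 to 592 CPM in controls, 198 to 202 in TACI long and 448 to 495 in TACI short. SYK itself stood at 290 to 299 CPM in controls, 396 to 408 in TACI long and 311 to 335 in TACI short.

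NF-kB targets and subunits had 23 of 33 members called higher in the averaged contrast (against 23.9% of all genes) and 6 shared higher (18.2%, against 11.1%) and 1 shared lower. Their medians were -0.08 in TACI long and 1.70 in TACI short. BCL2L1, the gene of the survival protein BCL-XL, was the shared higher member in which the lines were not called different, from 29 to 29.2 CPM in controls to 42.9 to 44.5 in TACI long and 43 to 45.6 in TACI short (short against long 0.01 ± 0.05). CD80, a costimulatory ligand, had 1.28 to 1.9 CPM in controls, 1.99 to 2.43 in TACI long and 33.5 to 37.1 in TACI short.

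The other shared NF-kB genes were likewise carried by TACI short. NFKBIA, which encodes the inhibitor IkB alpha, stood at 14.5 to 15.4 CPM in controls, 18.9 to 20 in TACI long and 92.7 to 94.8 in TACI short. BIRC3, an apoptosis inhibitor that also acts in TNF receptor signalling, stood at 82.9 to 85.9, 91.5 to 92.3 and 641 to 697 CPM. For CD40 the averaged log2 fold change was 0.98 ± 0.04, from 0.25 in TACI long and 1.70 in TACI short. RELB stood at 58.7 to 61.3 CPM in controls, 62.3 to 64.7 in TACI long and 154 to 170 in TACI short, where TACI long was barely clear of the controls. RELA was the shared lower member, by 0.16 ± 0.04, and lost its side when libraries were scaled by totals alone.

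Of 15 tested genes of MHC class I presentation 4 were shared higher (26.7%, against 11.1% of all genes) and 2 shared lower (13.3%, against 13.2%). HLA-B stood at 187 to 208 CPM in controls, 304 to 320 in TACI long and 680 to 749 in TACI short, and HLA-F at 2.04 to 2.25, 3.29 to 3.77 and 3.58 to 4.83 CPM. HLA genes share near-identical sequence, so their values are uncertain. Interferon-stimulated genes had 6 shared higher (19.4%, against 11.1%) and 1 shared lower (3.23%, against 13.2%) of 31 tested. OAS3, a sensor of double-stranded RNA, rose from 15.2 to 16.2 CPM to 21.9 to 22.8 and 36.7 to 40.4 CPM. IFIT5 was the lower one, at 1.43 to 1.7 CPM in controls and 0.503 to 1.27 CPM over the TACI libraries.

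Homing and adhesion genes had 3 of 12 tested shared higher (25%, against 11.1% of all genes) and 0 shared lower (against 13.2%). CXCR4, the receptor of CXCL12, rose from 30.5, 26 and 29 CPM in controls to 57.6, 55.9 and 54.3 CPM in TACI long and 80.4, 72.4 and 76.7 CPM in TACI short (averaged log2 fold change 1.20 ± 0.05). ICAM3 rose by 0.41 ± 0.08.

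Glycolysis genes had 8 of 20 tested shared lower (40%, against 13.2%) and 0 shared higher, and these 8 fell by 0.17 (LDHB, SLC2A1) to 0.43 (LDHA) on the averaged log2 scale. LDHA, lactate dehydrogenase A, fell from 2010 to 2110 CPM to 1490 to 1580 in TACI long and 1410 to 1550 in TACI short (averaged log2 fold change -0.43 ± 0.04). GAPDH fell by 0.29 ± 0.04, from 6330 to 6840 CPM to 4960 to 5500 CPM over the TACI libraries. Both genes have many processed pseudogenes that may share reads. The list's median was -0.20 in each line.

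Cell cycle genes had 7 of 30 tested shared higher (23.3%, against 11.1% of all genes) and 2 shared lower (6.67%, against 13.2%). TOP2A, DNA topoisomerase II alpha, rose from 496 to 523 CPM to 721 to 749 and 672 to 733 CPM. CDK6 rose from 160 to 188 CPM to 244 to 274 and 231 to 252 CPM. CCND3, which encodes the CDK6 partner cyclin D3, fell from 254 to 276 CPM to 192 to 201 and 198 to 214 CPM. In these 3 genes the TACI lines overlapped each other.

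Apoptosis regulators had 4 shared in each direction of 26 tested (15.4% each, against 11.1% of all genes higher and 13.2% lower). BCL2L11, the gene of the death-promoting protein BIM, rose from 36.8 to 39.2 CPM to 74.4 to 78 in TACI long and 50 to 53.5 in TACI short. MCL1, a survival gene, rose by 0.32 ± 0.03, with a short against long difference of 0.00 ± 0.04. BIK, another death-promoting member of the BCL-2 family, fell from 48.2 to 50.3 CPM to 20.7 to 22.9 and 24.9 to 27.5 CPM (averaged log2 fold change -1.04 ± 0.04).

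In the 4 lists given next at most 2 members were shared, where 24.4% of all genes tested were shared, 23.9% called higher and 27.6% called lower. Of 14 tested MHC class II genes, 12 were called higher and 2 lower, but 0 were shared. Of 13 mitochondrially encoded genes 8 were called lower and 0 were shared. The unfolded protein response list had 2 shared genes of 17, HERPUD1 (higher) and EDEM1 (lower), where EDEM1 left its side with upper-quartile factors or library totals alone, and the ATF4 list had 1 of 21, ATF5, which rose from 27.8 to 28.6 CPM to 35.8 to 42.6 CPM over the TACI libraries. The TACI list (15.4% shared, medians -0.03 in TACI long and -0.09 in TACI short) and the myeloid marker list (7.69%, 0.25 and 1.78) also had few. Both medians of each of those lists lay on one side of 0. In the 4 lists above, the medians of the 2 lines lay on opposite sides of 0: -0.11 in TACI long and 0.76 in TACI short for MHC class II, 0.29 and -0.94 for the mitochondrial genes, 0.55 and -0.66 for the unfolded protein response, and -0.52 and 0.45 for the ATF4 list.

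HSPA5, the chaperone BiP, is an example, at 1080 to 1120 CPM in controls, 1800 to 1860 in TACI long and 450 to 492 in TACI short. HLA-DQA1 had 19 to 21.3, 10.9 to 11.9 and 96.2 to 105 CPM. MT-ND2 had 1600 to 2010, 2240 to 2630 and 631 to 697 CPM. For such genes the controls lie between the lines, and the average describes neither.

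**Figure D4:**
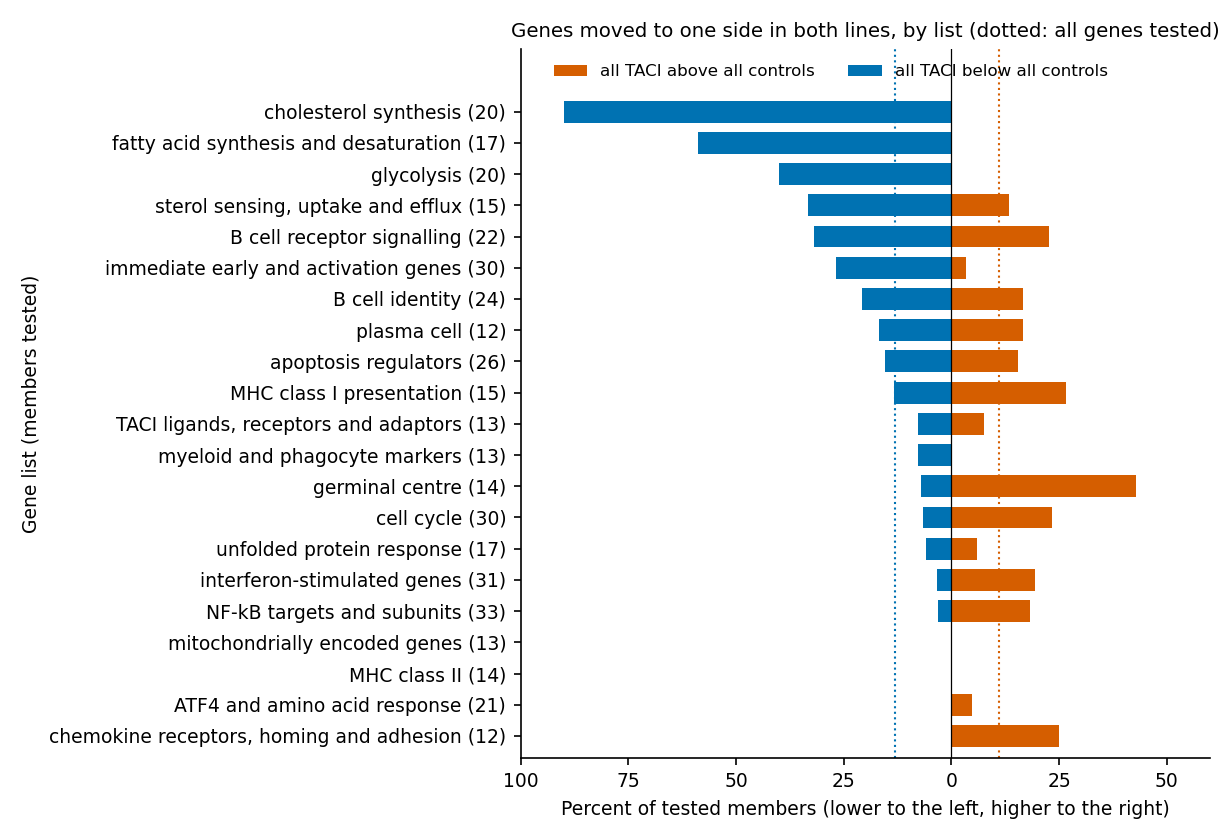
Bars give the percent of tested members of each list with all TACI libraries above (orange, to the right) or below (blue, to the left) all controls, for lists with at least 10 tested members, whose number is in brackets. Dotted lines mark the 11.1% and 13.2% of all genes tested. Cholesterol synthesis reaches 90% lower, and MHC class II and the mitochondrially encoded genes have 0 on either side.

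How alike the lines were within the shared genes was tested directly, as TACI short against TACI long, a contrast that uses no control library. Of the 1856 shared higher genes, TACI short was called above TACI long in 638 (34.4%), below it in 426 (23%), and 792 were not called. Of the 2204 shared lower genes, TACI short was above TACI long, hence nearer to the controls, in 511 (23.2%), below it in 900 (40.8%), and 793 were not called. Over all genes the shares were 35.2% above and 33.6% below. In the cholesterol list, as given above, TACI short was above in 17 of the 18 shared lower genes.

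Markers of other cell types were read beside these genes. For T and NK cells, 2 of 17 list genes had no count in any library, CD8B among them. In all, 6 had none in any control, CD2 among them. CD3E (0.52 to 1.66 CPM) and NKG7 (1.43 to 2.8 CPM) were present in every library. The list's sum without CD5 was 80.4 to 83.8 CPM in controls, 52.5 to 55 in TACI long and 72.5 to 80.1 in TACI short, mostly LCK. LCK, a SRC-family kinase, was itself shared lower (76 to 79.4, 48.1 to 50.7 and 66 to 75.5 CPM), though not with upper-quartile factors or library totals alone. For myeloid cells, 3 of 20 list genes, C1QB, C1QC and S100A8, had no count in any library, and others were present. ITGAX stood at 4.34 to 7.68 CPM in controls, 4.06 to 7.67 in TACI long and 24.1, 49.1 and 41.1 in TACI short. The myeloid sum without MPEG1 was 146 to 157 CPM in controls, 173 to 192 in TACI long, and 161, 276 and 267 CPM in TACI short. In controls and TACI long it was mostly SPI1, at 126 to 129 and 147 to 153 CPM, with 106 to 109 in TACI short. TACI short replicates 2 and 3 were higher in the sum than replicate 1. CSF1R stood at 4 to 8.98 CPM in controls, 5.82 to 11.8 in TACI long and 19.7, 52.8 and 53.5 in TACI short. The part of these myeloid transcripts in the results was not tested beyond leaving both libraries out. DCN, a proteoglycan gene of fibroblasts, was shared lower at 2.82 to 3.11 CPM in controls, 0.368 to 0.56 in TACI long and 1.84 to 2.36 in TACI short.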

How the data were processed

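The deposited files hold raw counts per gene for each library, made by the authors; the submitters' processing notes name FastQC, STAR 2.4.0h, HTSeq and hg38, and the annotation release, strand setting and filters are not given in the sources used here. Per the labels' protocols, polyadenylated RNA of sorted cells was made into Nextera XT libraries, which keep no strand. Gene types came from GENCODE 29.

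Genes were kept by filterByExpr (minimum count 10, minimum total 15), scaled with TMM factors and fitted as 3 groups of 3 libraries in edgeR 4.0.16 (R 4.3.3; robust quasi-likelihood fit, 6 residual degrees of freedom between libraries, biological coefficient of variation 0.0792 in common), with Benjamini-Hochberg adjustment over 16672 genes. An approximate SE was had by dividing the size of a log2 fold change by the root of its F. The fit was tested on simulated data. Gene lists were described by counts and medians, with no set test. Values of genes by library are CPM, and the precision of low ones is set by totals of 40322136 to 50079203 counts, with exact intervals covering counting error only, since the reads carry no molecular identifiers.

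The comparison, its members and the gene lists were chosen with earlier results of these data known. Of 95 genes followed through all alternatives, 60 were named by a rule: TNFRSF13B, the given markers, the 10 largest protein-coding and 2 largest other genes per direction by the smaller fold of the lines (mean of at least 1 CPM), and up to 2 shared genes per list. The other 35, the marker genes, FBXL16, MAD2L1, TM7SF2, NR1H3, FADS2, CD38, RGS13, LMO2, GCSAM, JCHAIN and ITGB7 were chosen after their values were seen. Alternatives were DESeq2 1.42.0, limma-voom (limma 3.58.1), other factors and filters, a 2-group fit, a replicate block, a 1.5-fold minimum and libraries left out. A few genes are in the counts but are not reported here by name.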

Additional observations from a re-analysis of the deposited data

Results flagged for a closer look

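The lines differed from each other by more than 2-fold in 15 of the shared genes named by rule and reported here (edgeR glmTreat on TACI short against TACI long, adjusted p under 0.05, no control library in the contrast). Among genes higher in both lines, TACI short was above TACI long by these log2 differences: UNC13C 6.91, CD80 4, LIMCH1 3.31, MAP2 2.07, TNFRSF13B 1.88, PECR 1.53 and HLA-B 1.16. CD5 was the exception among them, with TACI short below TACI long (-2.37). Among genes lower in both lines, TACI short was above TACI long, nearer to control, in EGR1 (3.56), SCIRT (2.86), SLAMF7 (2.51), DCN (2.27), FOS (2.09), LY9 (1.88) and SCD (1.57). The difference of UNC13C rests on 4 counts in TACI long, where its exact 95% interval against control includes no change.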

How the results depend on the processing

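Counts of called and shared genes stayed within 1.5 times under most of the 20 alternatives. With the TACI libraries as a single group, 958 genes were called higher and 958 lower, and the medians of the unfolded protein response (0.09) and ATF4 (0.14) lists and the value of HSPA5 (0.07) changed sign. Against a 1.5-fold minimum change, 610 genes were called higher and 376 lower, and within the shared genes TACI short was above TACI long in 201 higher and 133 lower genes and below it in 49 and 66. Leaving out both TACI short replicates 2 and 3 put the myeloid list's median at -0.19, in place of 1.11, CD24 was at -5.13 in place of -2.74, and 4244 genes were called higher and 4345 lower. Library totals alone gave 5102 higher and 3722 lower calls, upper-quartile factors 4683 and 4150, DESeq2 3742 and 4219, and voom 3881 and 4620. The replicate block gave 4043 higher and 4692 lower calls. Deviations from the group means of same-numbered libraries correlated at 0.211 to 0.496 between control and TACI short, but at -0.399 to 0.175 in pairs with TACI long, so the replicate numbers were not taken to pair all 3 groups. Between control and TACI short 3 of 6 libraries correlated best with their own number. With 1 library left out at a time, 3178 to 5024 genes were called higher and 3972 to 5065 lower. In these settings 1996 to 2199 were shared higher and 2230 to 2592 lower, more than with all libraries. Fewer libraries must then lie on one side, and more genes, 16964 to 17652, passed the count filter. The single-group fit ended the call of 36 of the 95 genes followed, among them HMGCS1, INSIG1, SCD, EGR1, CD69, CD80, NFKBIA, BIRC3 and SLAMF7, whose lines lie far apart, and the 1.5-fold minimum that of 29. EDEM1, LCK and MSMO1 left their side of the controls with upper-quartile factors and with library totals alone, and RELA and HRK with totals alone. Depth limits genes such as UNC13C, CD24 and PECR, which have few counts in some group.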

Other observations

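Shared genes were not spread evenly over gene types and positions. Protein-coding genes were shared more often than the other types with over 100 tested genes (12.3% higher and 15.1% lower), and lincRNAs were shared higher in 11.4% but lower in 5.38%. Among nuclear chromosomes, chromosome 16 had 16.8% of its tested genes shared lower and chromosome 15 had 8.15%, with 14.1% shared higher on chromosomes 4 and 21 and 8.6% on chromosome 19. No test was made of these shares. Shared lower genes had a median level of 43.9 CPM and shared higher genes 14.1, against 11.7 over all genes tested. Whether the shares by type, position or gene list follow expression level was not tested.

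Runs of at least 5 neighbouring tested genes that were all shared in one direction were listed. On chromosome 6 from 43182175 to 43529585 (hg38), 8 genes from CUL9 to POLR1C were all lower (median log2 fold change -0.70). On chromosome 3 from 133038391 to 133825772, 7 genes from TMEM108 to SRPRB were lower (-0.88). Chromosome 19 held 2 runs of 6 lower genes, one with IER2 and LYL1 (13099033 to 13633025, -0.76) and one with CD22 and MAG (35248330 to 35353862, -1.35). MPEG1 sat in a run of 5 lower genes on chromosome 11 (59171430 to 59284033, -1.33), some of them pseudogenes. The 5 higher neighbours on chromosome 14 were mostly IGHV genes, which share near-identical sequence (1.01).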
